A study of Mus musculus with 4 samples.

Results

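The genes described here encode the proteins of blood clotting, clot removal and the complement system, together with the inhibitors that hold these cascades in check. They were chosen by name from a list of 52 genes, and a probe set counted as a member when the array's annotation gave it a single gene symbol and that symbol was on the list. Of the 52 genes, 43 had at least 1 such probe set, with 51 probe sets among the 12422 on the array that are not controls. F11, Cpb2, Serpina1a, C3, C4b, Cfd, C6, C8a and C8b were matched by no probe set under this rule and were not analysed here. Testing required a signal above 41.3 on 2 or more of the 4 arrays, which 45 probe sets of 40 member genes met. Plaur, Tfpi, C3ar1 and 1 further probe set each of Proc, Vwf and C2 were too dim for the test.

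Affymetrix MG_U74Av2 arrays, which read each gene with 1 or more sets of short probes, were hybridised with total RNA from the livers of male Hybrid B6SJL mice aged 50-66 days. After weaning, both groups ate a high-protein food (65% protein, 10% carbohydrate) for 4 weeks. The 2 wild-type arrays came from mice without a transgene, and the 2 PEPCK-TAg arrays from transgenic mice with lasting, high levels of the SV40 oncoproteins LT and st in the liver. The transgene is named for PEPCK, the gluconeogenic enzyme made by hepatocytes and by some other tissues, and no source used here states how many animals stand behind an array. The design text speaks of duplicate measurements, so a p-value here reflects only how far these arrays differ, and that spread may be technical. In total liver RNA, fewer cells of a type and less RNA per cell cannot be told apart.

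Hepatocytes make most of the plasma's clotting and complement proteins. In coagulation, a chain of serine proteases, several of which need vitamin K for their maturation, ends in thrombin, which turns fibrinogen into fibrin, and plasmin later dissolves the clot. Complement is started by antibodies, by lectins that bind sugars on microbes, or by its own slow turnover. All these routes lead to enzymes that split C3 and C5 and to a pore built from the terminal components. Serpins and other inhibitors limit each step.

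Albumin (Alb), the defining hepatocyte product, was the brightest probe set on 3 of the 4 arrays, with signals of 15364 and 17286 in wild-type liver against 9379 and 13117 in PEPCK-TAg liver. The median signal of all probe sets was 66.6 to 68.5 in wild-type liver against 77.0 to 84.7 in PEPCK-TAg liver, while the highest signal was 15892 to 17286 against 9379 to 13117. PEPCK-TAg arrays thus had the higher middle and the lower top of the range. The ratio of probe sets at the 3' end to those at the 5' end is a gauge of how intact the RNA was. For actin it was 3.41 to 4.33 in wild-type and 3.14 to 3.82 in PEPCK-TAg liver. For Gapdh it was 3.80 to 5.35 in wild-type and 2.90 to 4.57 in PEPCK-TAg liver. No chip lot held arrays of both groups, so lot and group cannot be told apart. With 4 arrays, their number sets the precision of all values below.

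The question was how exposure to the viral oncoproteins altered the expression of these genes. In PEPCK-TAg liver 6 member probe sets fell and none rose. The 6 were Mbl1, Mbl2 and Masp2, which start the lectin pathway of complement, C9, the last component of the complement pore, Serping1, the inhibitor of the first complement proteases and of the contact proteases of coagulation, and Itih1, a heavy chain of inter-alpha-trypsin inhibitor. Their log2 differences (PEPCK-TAg minus wild-type) ran from -1.0 to -1.53, which are falls of 2.0-fold to 2.88-fold. No protease, cofactor or fibrinogen chain of coagulation passed the test in either direction.

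The 6 calls among 45 probe sets are 13.3%, beside 3.4% of all 7877 probe sets tested that were called lower. Calls are at a Benjamini-Hochberg adjusted p of 0.05 in limma's moderated test, with 2 arrays per group throughout. Of all probe sets 9.1% were called higher, against 0 of the members by limma. At an unadjusted p of 0.05, 10 member probe sets were lower and 2 were higher, the latter being Vwf and 1 of F10. A change of at least 2-fold without overlap of the arrays, a count with no test, was met by the same 6 members, all lower, and by 5.87% of all probe sets in the lower and 14.7% in the higher direction. Whatever the size of the difference, 22 of 45 members lay wholly below the wild-type arrays and 5 wholly above, against 26.5% and 33.3% of all probe sets. Among the 5 was F3, which was tested only through the PEPCK-TAg arrays and could only be higher. The median log2 difference over the 45 was -0.28, beside 0.051 over all probe sets. Under quantile normalization the median of the members was -0.036 and that of all probe sets -0.088, so the shift of the members as a whole depends on the scaling.

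**Figure D1:**
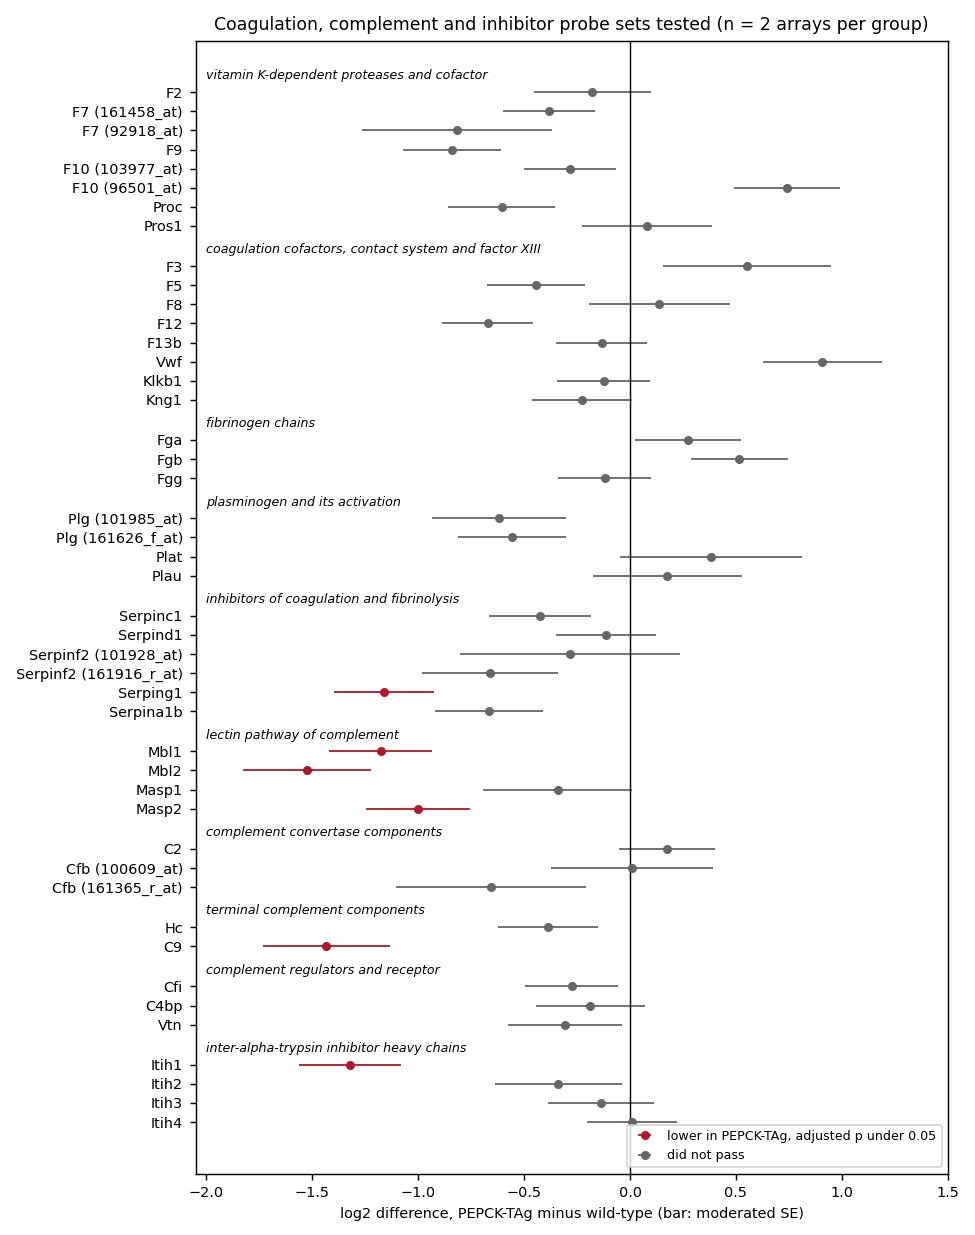
Log2 difference between PEPCK-TAg and wild-type liver for the 45 member probe sets tested, grouped by role. Points are differences of group means and bars are moderated standard errors (n = 2 arrays per group). The 6 probe sets called lower lie between -1.0 and -1.53, and 12 of the 45 lie above 0 (20 of 44 under quantile normalization).

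The brightness of a probe set moved with its difference. Among all probe sets with a mean signal of 1000 or more, the median log2 difference was -0.29, 67.3% were lower in PEPCK-TAg liver and 11.7% of 932 were called lower. Of the members, 30 were that bright, with a median of -0.32, and 26 of them were lower and 4 called. Above a signal of 4000, 1 of 16 members was called lower, beside 17.9% of all 162 probe sets. The medians there were -0.29 for the members and -0.50 for all. Below a signal of 1000 the all-probe-set shares called lower were 1.37% under 100 and 2.78% from 100 to 1000, and the members' calls there were 0 of 6 and 2 of 9. The 2 were Mbl1 and Masp2. The part of brightness in the members' falls was not tested further than by the scaling alternatives. Under quantile normalization, which gives every array the same distribution, Mbl1, Mbl2, Masp2 and Itih1 were called lower and C9 (-1.07, limma adjusted p = 0.0583) and Serping1 (-0.70, adjusted p = 0.0734) were not.

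**Figure D2:**
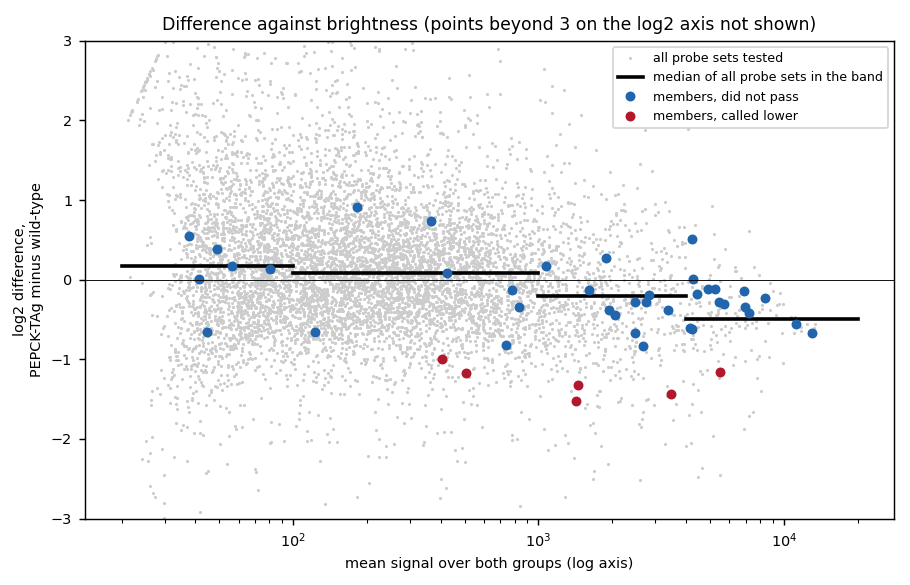
Log2 difference against mean signal for all 7877 probe sets tested (grey) and for the members (blue, did not pass; red, called lower), with black bars at the median of all probe sets in each of 4 signal bands. The bars step down from 0.17 below a signal of 100 to -0.50 above 4000, and the 6 called members lie between -1.0 and -1.53.

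Most markers of hepatocytes were also lower under linear scaling. Of 14 hepatocyte marker probe sets tested 13 were lower, with a median of -0.43, and Tat, the tyrosine aminotransferase, and Ttr, the carrier transthyretin, were called lower (-1.24 and -1.76 on the log2 scale). Under quantile normalization Tat and Ttr were again called lower, 6 of the 14 were lower and the median was 0.069. Their summed signal was 110332 and 110613 in wild-type liver against 67010 and 85605 in PEPCK-TAg liver. With every array centred on these markers, a setting chosen after seeing the data, no member was called lower and Fgb, Vwf and 1 probe set of F10 were called higher. The 6 members then differed by -0.53 to -1.05. The lowest adjusted p among them was 0.0567, for Mbl2. The part of hepatocyte content in the falls was not tested beyond this.

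In the lectin pathway, mannose-binding lectins recognise sugars on microbes and carry the proteases Masp1 and Masp2, and Masp2 cleaves C4 and C2. Of the 4 probe sets 3 fell, with a median log2 difference of -1.09 over the 4 and of -1.20 under quantile normalization, where the count of falls was also 3. Mbl2, one of the mouse genes for mannose-binding lectin, read 1939 and 3003 in wild-type liver against 713 and 984 in PEPCK-TAg liver. Both PEPCK-TAg signals were below both wild-type signals, a fall of 2.88-fold (log2 difference -1.53 ± 0.30 SE, limma adjusted p = 0.0234). Mbl1, its paralog, read 801 and 724 against 374 and 303, a fall of 2.26-fold (-1.18 ± 0.24 SE, adjusted p = 0.0271). Here too the groups were well apart, by more than the wild-type or the PEPCK-TAg arrays differed from each other. Masp2 read 521 and 624 against 268 and 303, a fall of 2.0-fold (-1.0 ± 0.25 SE, adjusted p = 0.0454). It was the call nearest the threshold, and without wild-type 2 its adjusted p was 0.0954. Masp1, whose gene also gives a protease that acts on Masp2, read 1319.5 and 665 against 785 and 698 and did not pass (-0.34 ± 0.35 SE, adjusted p = 0.556). The wild-type arrays of Masp1 differed more from each other than the groups did, and without wild-type 1 its difference was 0.15.

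The promoters of the paralogs are shown because they fell together. The 150 bases before each start site are from RefSeq (GRCm38.p6), with Mbl1 at chr14:41151306-41151455, plus strand and Mbl2 at chr19:30232778-30232927, plus strand. Capitals mark the best local alignment between them.
Mbl1: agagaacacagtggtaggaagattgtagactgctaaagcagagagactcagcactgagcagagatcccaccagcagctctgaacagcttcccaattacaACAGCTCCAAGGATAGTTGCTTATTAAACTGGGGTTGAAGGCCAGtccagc
Mbl2: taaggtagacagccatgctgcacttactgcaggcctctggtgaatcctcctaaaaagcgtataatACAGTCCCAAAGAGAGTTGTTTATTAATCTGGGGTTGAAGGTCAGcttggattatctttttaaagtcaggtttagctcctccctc
The aligned stretch spans 45 bases without a gap, of which 38 (84.4%) are identical, and it holds a run of 13 shared bases. It lies at -51 to -7 from the start site in Mbl1 and at -85 to -41 in Mbl2. Masp2, at chr4:148602394-148602543, plus strand, is a gene of another family, and capitals in its promoter mark a match to CTGGGAA, the core of response elements for interleukin-6, on the opposite strand.
Masp2: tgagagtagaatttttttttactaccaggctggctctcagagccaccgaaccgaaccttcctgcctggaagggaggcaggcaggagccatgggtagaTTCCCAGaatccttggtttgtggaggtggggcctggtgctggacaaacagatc

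Among the terminal components, which build the pore in the target membrane, both genes measured lay wholly below wild-type. So did 26.5% of all probe sets tested, whatever the size of the difference. C9, which polymerises into the ring of the pore, read 7389 and 4368 in wild-type liver against 2244 and 1972 in PEPCK-TAg liver. The wild-type arrays were well apart from each other, and the lower of them was still above both PEPCK-TAg arrays. C9 fell 2.70-fold (-1.43 ± 0.30 SE, limma adjusted p = 0.0274). The size of that fall varied with the wild-type array used, at -1.05 without wild-type 1 and -1.81 without wild-type 2. Hc, which encodes C5, the protein whose cleavage starts pore assembly, read 4095 and 3608 against 2599.7 and 3329. Its difference of -0.39 ± 0.24 SE did not pass (adjusted p = 0.317). The promoter of C9, at chr15:6445196-6445345, plus strand, is shown for its match to TTGCNNAA, the letters of sites of C/EBP, a family of liver-enriched factors, given in capitals.
C9: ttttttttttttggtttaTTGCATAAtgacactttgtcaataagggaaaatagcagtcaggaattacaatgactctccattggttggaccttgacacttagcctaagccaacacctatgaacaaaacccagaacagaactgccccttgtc

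**Figure D3:**
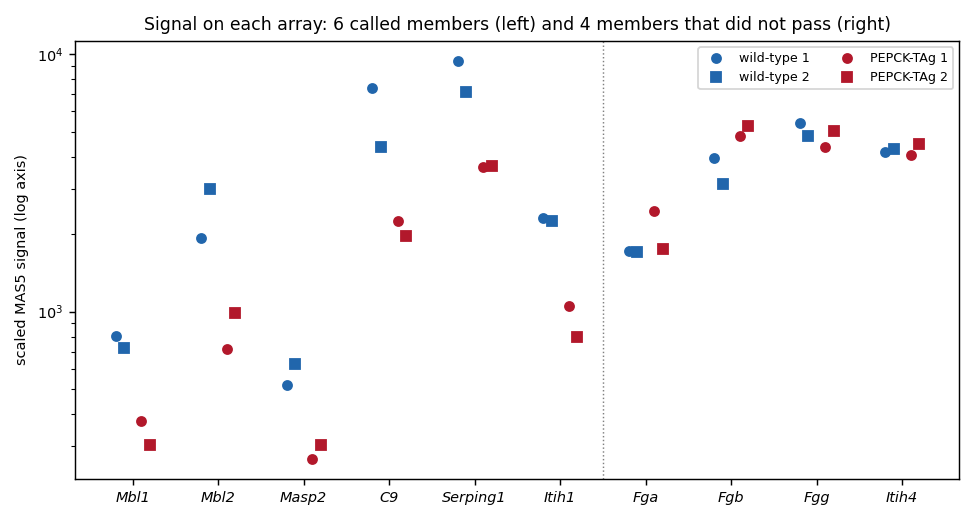
Scaled signal on each of the 4 arrays (log axis; circles, replicate 1; squares, replicate 2; blue, wild-type; red, PEPCK-TAg) for the 6 members called lower and, right of the dotted line, for Fga, Fgb, Fgg and Itih4, which did not pass. In the 6 called members every red point lies below every blue point, and in Itih4 all 4 signals lie between 4052 and 4485.

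Of the 6 probe sets of inhibitors of coagulation and fibrinolysis, Serping1 passed. Serping1 (C1 inhibitor) blocks the proteases C1r, C1s and the Masp enzymes in complement and factor XIIa and kallikrein in the contact system. It read 9455 and 7111 in wild-type liver against 3661 and 3677 in PEPCK-TAg liver, which lay close together and far below wild-type. The fall was 2.23-fold (-1.16 ± 0.24 SE, limma adjusted p = 0.0253), and the adjusted p was 0.0796 without wild-type 1. Serpina1b, an alpha-1-antitrypsin that inhibits neutrophil elastase, was the brightest member and the brightest probe set of wild-type 1, at 15892 and 16801 against 8569 and 12397. Its difference was -0.66 ± 0.26 SE (adjusted p = 0.139), and the suffix of its probe set marks it as shared by a sequence family, so relatives may add to it. Antithrombin (Serpinc1), the main inhibitor of thrombin and factor Xa, read 8272 and 8502 against 5357 and 7300.0 (-0.42 ± 0.24 SE, adjusted p = 0.286). Heparin cofactor II (Serpind1), which inhibits thrombin, gave 6048 and 4920.1 against 4569.5 and 5572, and the groups overlapped (-0.11 ± 0.24 SE). Serpinf2, the inhibitor of plasmin, had a pair of probe sets tested. The brighter varied widely within wild-type, at 1653 and 4471 against 1596 and 3123 (-0.28 ± 0.52 SE), and the dimmer read 139 and 171 against 81.8 and 117 (-0.66 ± 0.32 SE, adjusted p = 0.219).

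The inter-alpha-trypsin inhibitor heavy chains are secreted by hepatocytes and bind hyaluronan in the matrix. Of these 4 genes 1 fell. Itih1 read 2306 and 2260.2 on the wild-type arrays, which lay close together, and 1052 and 794 in PEPCK-TAg liver. It fell 2.50-fold (-1.32 ± 0.24 SE, limma adjusted p = 0.0172, the lowest of any member). Itih3, another heavy chain, read 6308 and 8285 against 5873 and 7343, with overlapping groups (-0.14 ± 0.25 SE). Itih2 read 6546 and 9334 against 5028 and 7602, where replicate 2 was the higher in both groups (-0.34 ± 0.30 SE, adjusted p = 0.487). Itih4 was nearly level, at 4181 and 4299.6 against 4052 and 4485 (0.01 ± 0.21 SE). Whether Itih1 differed from its relatives was not tested as a difference. In the promoter of Itih1, at chr14:30943290-30943439, minus strand, capitals mark a match on the opposite strand to GTTAAT, part of the site of HNF1, a liver-enriched factor.
Itih1: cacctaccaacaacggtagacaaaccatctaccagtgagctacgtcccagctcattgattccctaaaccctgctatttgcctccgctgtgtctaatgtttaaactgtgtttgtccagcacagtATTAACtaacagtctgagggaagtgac

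Among the vitamin K-dependent factors none of 8 probe sets passed in limma, and at an unadjusted p of 0.05, 2 were lower and 1 was higher. Factor IX (F9), the protease missing in haemophilia B, came nearest, at 4034 and 3138 in wild-type liver against 2036 and 1944 in PEPCK-TAg liver. The groups did not overlap, and the difference was -0.84 ± 0.23 SE (adjusted p = 0.0633). Protein C (Proc), which as an activated protease destroys factors Va and VIIIa, read 4811 and 5472 against 2845 and 3998 (-0.61 ± 0.25 SE, adjusted p = 0.164). Prothrombin (F2) read 4171 and 5353 against 3444 and 5063, and protein S (Pros1), the cofactor of activated protein C, 359.6 and 473 against 352 and 542. In both genes the groups overlapped and replicate 2 was the higher array of each group (-0.18 ± 0.28 SE and 0.08 ± 0.31 SE). Factor VII (F7), which starts coagulation with tissue factor, had probe sets at 2178 and 2261 against 1594 and 1820.5 and at 621 and 1532 against 457 and 672. The latter varied widely within wild-type (-0.38 ± 0.22 SE and -0.82 ± 0.45 SE). Its difference was -1.47 without wild-type 1, where it was called lower (adjusted p = 0.0125), and -0.16 without wild-type 2 (adjusted p = 0.801), so it rests on the wild-type array used. The probe sets of factor X (F10), where both routes to thrombin meet, differed in sign. The bright one read 3283 and 2786 against 2460.3 and 2509 (-0.28 ± 0.22 SE, adjusted p = 0.425). The dim one read 292 and 273 against 424 and 525 (0.74 ± 0.25 SE, adjusted p = 0.105), and neither had overlapping groups. The direction for F10 is thus not settled by these arrays.

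The promoter of F9 is shown since its motifs lie close to the start site and it held more matches than those of the called genes. A further match to CAAAGNNCA crosses the start site and is not shown. At chrX:59999314-59999463, plus strand, capitals mark, from left to right, matches to CTGGGAA and to CAAAGNNCA, a site of the liver-enriched receptor HNF4, both on the opposite strand, and to TTGCNNAA.
F9: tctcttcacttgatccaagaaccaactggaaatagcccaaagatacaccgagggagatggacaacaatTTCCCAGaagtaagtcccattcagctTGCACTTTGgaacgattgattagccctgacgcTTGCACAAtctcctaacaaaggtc

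Of the cofactors, contact factors and factor XIII none of 8 probe sets passed in limma, with 1 lower and 1 higher at an unadjusted p of 0.05. Factor XII (F12), the protease that starts the contact system, was the one lower, at 2986 and 3288 in wild-type liver against 1897 and 2043 in PEPCK-TAg liver (-0.67 ± 0.21 SE, adjusted p = 0.0924). Plasma prekallikrein (Klkb1) and kininogen (Kng1), its partners, read 793 and 842 against 758 and 741 and 8818 and 9429.9 against 6787 and 8929.8. Their differences were -0.13 ± 0.22 SE and -0.23 ± 0.24 SE, both smaller than their errors. Factor V (F5), the cofactor of factor Xa, read 2296 and 2477 against 1554 and 1979 (-0.44 ± 0.23 SE, adjusted p = 0.253). The carrier chain of factor XIII (F13b) read 1772 and 1614 against 1531 and 1551 (-0.13 ± 0.21 SE). Factor VIII (F8), the cofactor of factor IXa, is made by endothelium and was dim, at 72.7 and 80.7 against 71.9 and 98.6 (0.14 ± 0.33 SE). Tissue factor (F3), the membrane protein that starts coagulation, was dimmer still, at 28.7 and 33.6 against 48.4 and 43.0 (0.55 ± 0.40 SE). Both wild-type signals of F3 were below the filter level, so it was tested only through the PEPCK-TAg arrays and could only be higher.

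Von Willebrand factor (Vwf), the adhesion protein of endothelium and platelets that carries factor VIII, was higher on both PEPCK-TAg arrays. It read 154 and 114 against 245 and 253 (log2 difference 0.91 ± 0.28 SE, limma adjusted p = 0.0857), and it did not pass. Without wild-type 1 it was called higher at 1.12 (adjusted p = 0.0444). A further Vwf probe set read 3.40 to 7.31 on all arrays, below the filter level. Of the platelet and megakaryocyte markers, Gp9 rose from 23.3 and 39.8 to 115 and 199.7, and Gp1bb from 6.51 and 9.20, under the floor of 10.6 set for the fit, to 53.0 and 106. Their log2 differences were 2.32 and, over the floor, 2.83. Pf4, the platelet chemokine, read 3.20 to 22.1 over the arrays and Itgb3, the platelet integrin chain, 3.10 to 10.6, all below the filter level. A probe set of Gp5, another platelet glycoprotein, went the other way without passing (-1.01). It read 44.8 and 44.4 in wild-type liver against 21.2 and 23.2 in PEPCK-TAg liver. This probe set passed the filter only through the wild-type arrays, so it could only be lower. A further Gp5 probe set, not tested, read 4.90 and 5.60 in wild-type liver against 7.49 and 67.2 in PEPCK-TAg liver. Of 3 platelet probe sets tested 2 rose, both of which passed the filter through the PEPCK-TAg arrays, and the summed signal of all 6 was 87.7 and 125 in wild-type liver against 211 and 409 in PEPCK-TAg liver. Of 12 endothelial marker probe sets tested 1 rose (Icam2), which also passed the filter only through the PEPCK-TAg arrays. The sum over 15 was 3094 and 1900 against 2245 and 2552. The part of either cell type in the level of Vwf was not tested.

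The fibrinogen chains, bright hepatocyte products, are joined into the substrate of thrombin. None of the 3 passed, and none reached an unadjusted p of 0.05 in limma. Fgb, the beta chain, read 3943 and 3147 in wild-type liver against 4802 and 5284 in PEPCK-TAg liver, which lay wholly above (0.52 ± 0.23 SE, adjusted p = 0.185). Fga, the alpha chain, read 1721 and 1712 against 2455 and 1754, where 1 PEPCK-TAg array was high and the other just above wild-type (0.27 ± 0.25 SE, adjusted p = 0.50). Fgg, the gamma chain, read 5389.9 and 4828 against 4377 and 5037, with overlap (-0.12 ± 0.22 SE, adjusted p = 0.748). Under quantile normalization Fgb was called higher at 0.94 (adjusted p = 0.0280) and Fgg turned to 0.345.

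The promoters of Fga, at chr3:83026003-83026152, plus strand, and Fgb, at chr3:83049864-83050013, minus strand, are shown because their chains join in the same molecule. The promoter of Fgg, whose chain joins them, is not shown. Of the motifs searched it held only CTGGGAA. Capitals mark matches on either strand to GTTAAT in both promoters, to TTGCNNAA in both, to CAAAGNNCA in Fga and to CTGGGAA in Fgb.
Fga: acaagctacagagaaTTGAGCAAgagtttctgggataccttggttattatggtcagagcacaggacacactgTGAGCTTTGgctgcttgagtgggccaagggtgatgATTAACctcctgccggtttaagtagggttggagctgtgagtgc
Fgb: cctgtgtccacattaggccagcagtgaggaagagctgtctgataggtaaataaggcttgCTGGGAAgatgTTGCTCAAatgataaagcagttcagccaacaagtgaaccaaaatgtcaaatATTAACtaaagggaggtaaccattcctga

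Plasminogen (Plg), the precursor of the clot-dissolving protease plasmin, lay wholly below wild-type in both its probe sets without passing. The first read 4212 and 6572 in wild-type liver against 2809.8 and 4181 in PEPCK-TAg liver (-0.62 ± 0.31 SE, limma adjusted p = 0.240). The second, marked as shared by a sequence family, read 14616 and 12741 against 7818 and 11003 (-0.56 ± 0.25 SE, adjusted p = 0.195). Its activators were near the filter level: Plat, the tissue-type activator, read 35.0 and 52.8 against 70.1 and 44.9, and Plau, urokinase, 47.4 and 58.8 against 60.6 and 58.8. Groups overlapped in both genes (0.38 ± 0.43 SE and 0.18 ± 0.35 SE). None of the 4 probe sets of this group reached an unadjusted p of 0.05.

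Of the convertase components, C2, the protease of the classical and lectin C3 convertase, read 1098 and 937 in wild-type liver against 1196 and 1097 in PEPCK-TAg liver (0.18 ± 0.23 SE). Its cleaving enzyme Masp2 fell, while for C2 the groups overlapped. Factor B (Cfb), the protease of the alternative pathway convertase, was dim, and its probe sets differed in sign. They read 45.0 and 37.7 against 42.3 and 40.7 and 63.1 and 49.9 against 26.3 and 48.2 (0.01 ± 0.38 SE and -0.66 ± 0.45 SE, neither past the test). Among the regulators, factor I (Cfi), which destroys C3b and C4b, read 6522 and 5545 against 5206 and 4738, wholly below wild-type (-0.28 ± 0.22 SE, adjusted p = 0.440). Its cofactor C4bp read 3405 and 2687 against 3075 and 2294, and vitronectin (Vtn), which blocks insertion of the pore, 5435 and 7439 against 4433 and 5966. These groups overlapped (-0.19 ± 0.26 SE and -0.31 ± 0.27 SE), and all 3 regulators had the opposite sign under quantile normalization. None of these 6 probe sets reached an unadjusted p of 0.05 in limma.

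The members not tested were near the limit of the arrays. Plaur, the urokinase receptor, read 8.21 and 10.0 in wild-type liver against 27.4 and 10.7 in PEPCK-TAg liver. Tfpi, the inhibitor of the tissue factor route, read 26.9 and 9.80 against 30.5 and 41.4, where 1 wild-type signal was under the floor of 10.6. C3ar1, the C3a receptor of myeloid cells, read 40.6 and 31.7 against 28.0 and 31.8. No order between the groups is given for these genes.

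Promoter sequences were found for 32 of the 43 member genes (33 promoters, each from 250 bases before to 50 after the start site), and Serping1 was not among these. Of the 32 genes 9 held GTTAAT on either strand, 9 TTGCNNAA, 5 CAAAGNNCA, 6 CTGGGAA and 8 the TATA box letters TATAAA. Over all 32851 promoters of the same length the shares were 7.10%, 10.8%, 6.36%, 11.1% and 13.6%, and over the 33 member promoters 27.3%, 27.3%, 15.2%, 18.2% and 24.2%. Of the 5 genes called lower with a promoter, GTTAAT was found in 1 (Itih1), TTGCNNAA in 1 (C9), CTGGGAA in 1 (Masp2), and the other motifs in none. The 24 genes tested without a call held them in 8, 7, 5, 4 and 6, in the same order of motifs. The matches describe letters in these windows and not binding.

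Other genes of the same pathways, taken from lists of names, gave 3 falls and 2 rises. Beside these counts, 3.4% of all probe sets tested were called lower and 9.1% higher. Of 24 probe sets of other coagulation and fibrinolysis genes tested 2 fell and none rose in limma (8 lower and 1 higher at an unadjusted p of 0.05), with a median of -0.55 (-0.38 under quantile normalization). Hrg, a plasma protein that binds plasminogen and heparin, read 2765 and 3017 in wild-type liver against 1352 and 1351 in PEPCK-TAg liver (-1.10 ± 0.21 SE, adjusted p = 0.0217). Serpina3n, an inhibitor of chymotrypsin-like proteases, read 2674 and 3746 against 1301 and 1583 (-1.14 ± 0.26 SE, adjusted p = 0.0366). Both lay wholly below wild-type. Of 21 probe sets of other complement genes 1 fell and 2 rose in limma. At an unadjusted p of 0.05, 2 were lower and 4 higher. The median of the 21 was -0.02 (0.067 under quantile normalization). C8g, a chain of the terminal component C8, read 3115 and 4516 against 1309.6 and 1898 (-1.25 ± 0.30 SE, adjusted p = 0.0404). It lay wholly below wild-type, as C9 did. Properdin (Cfp), the stabiliser of the alternative convertase that leukocytes make, rose from 47.5 and 64.1 to 133 and 211 (1.60 ± 0.36 SE, adjusted p = 0.0357). Itgb2, the beta chain of the leukocyte complement receptors, rose from 35.6 and 10.2 to 155 and 201, with 1 wild-type signal under the floor (3.18 ± 0.60 SE, adjusted p = 0.0190). Both wild-type signals of Itgb2 were below the filter level, so it was tested only through the PEPCK-TAg arrays and could only be higher. C1qb, a chain of C1q, which macrophages make, had probe sets of opposite sign that did not pass. Their differences were 1.40 (limma adjusted p = 0.0511) and -0.79 (adjusted p = 0.139). The other chains, C1qa and C1qc, were higher without passing (0.67 and 0.78). Under quantile normalization Hrg (-0.89) and Itgb2 (2.99) were still called, while Serpina3n (-0.93, adjusted p = 0.0654), C8g (adjusted p = 0.0761) and Cfp (1.34, adjusted p = 0.0652) were not.

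**Figure D4:**
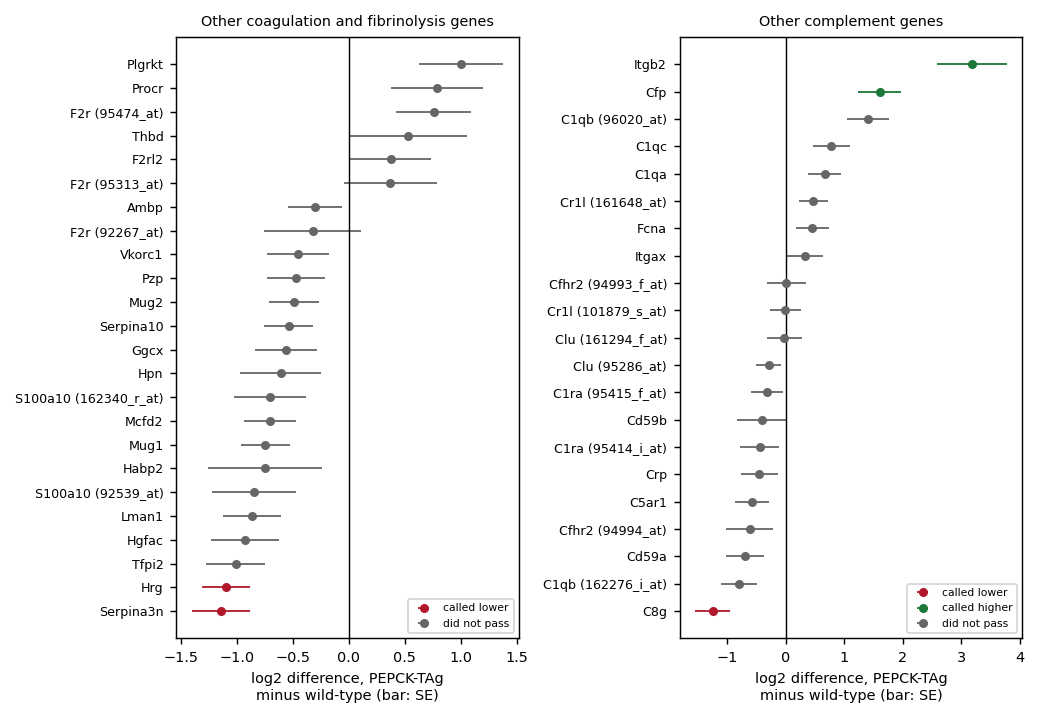
Log2 difference with moderated SE (n = 2 arrays per group) for probe sets of pathway genes outside the member list. Hrg, Serpina3n and C8g were called lower (red), Cfp and Itgb2 were called higher (green), and grey points did not pass.

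Markers of other cells moved beside Cfp and Itgb2. Under linear scaling, 8 of 10 marker probe sets for neutrophils and their precursors rose. So did 4 of 10 for macrophages and 6 of 7 for erythroid cells. For lymphocytes 1 of 4 rose, and for stellate cells and fibroblasts 1 of 10. No probe set of these lists was called lower. The median log2 difference was -0.61 over the 4 lymphocyte probe sets, of which 3 were lower. Over the 10 stellate probe sets it was -0.25, and 6 were lower. Ngp, S100a8, S100a9, Mpo, Prtn3, Epb42, Ltb and both probe sets of Hemgn passed the filter only through the PEPCK-TAg arrays. Their direction was thus fixed by the filter. Quantile normalization gave the same counts of rises for neutrophils, macrophages and erythroid cells. There the stellate riser, Col3a1, did not pass (0.96, adjusted p = 0.0839), and the lymphocyte riser, Ltb, fell under the filter and was not tested. Neutrophil markers summed to 489 and 499 in wild-type liver against 7504 and 11549 in PEPCK-TAg liver, and macrophage markers to 2082 and 1960 against 4955 and 5361. None of 4 probe sets of the adipocyte list passed in limma, where Lipe and Pck1 were lower at an unadjusted p of 0.05. Pck1 is the PEPCK gene, which hepatocytes also express, and the defining marker Adipoq read 6.59 to 23.4, below the filter level. The part of these cells in the rises of Cfp and Itgb2 was not tested.

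The array files give batches that bear on these calls. Wild-type 1 and PEPCK-TAg 1 were scanned on the same day, and within that pair the log2 differences were -1.10 for Mbl1, -1.44 for Mbl2, -0.96 for Masp2, -1.72 for C9, -1.37 for Serping1 and -1.13 for Itih1. All 6 were in the direction of the full comparison, as any pair would be, since their arrays did not overlap between the groups. For the same reason their direction could not change when an array was left out, so neither is a separate check. PEPCK-TAg 2 was the only array of its fluidics station and wild-type 2 the only one of its scanner type. A block with a lone array takes that array out of the comparison. Each of these blocks thus gave the same differences as leaving its lone array out, and is not a separate check. With station as a block no member was called, and no probe set at all (1432 passed an unadjusted p of 0.05, 11 of them members), while the differences of the 6 ran from -1.02 to -1.76. With scanner type as a block 5 of the 6 were called lower, all but Masp2 (adjusted p = 0.0933). Leaving out PEPCK-TAg 1 or PEPCK-TAg 2 also left no call in the whole table (1348 and 1433 at an unadjusted p of 0.05), and the 6 members were lower in each such fit.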

How the data were processed

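The values are MAS5 signals, per the submitters' processing notes, deposited by the authors as linear intensity with 1 value for each probe set of each array. MAS5's version was not stated. Their 2% trimmed means were 250.1 to 250.2, and arrays were rescaled here to a shared trimmed mean that left out the 66 controls. Signals under the 20th percentile (10.6) were set to it before log2. The filter level was the 40th percentile (41.3). The fit used limma 3.58.1 in R 4.3.3 with an intensity trend and without blocks, two-sided, on 7877 probe sets, and its moderated SE has 6.60 degrees of freedom. For a single probe set, permuting 2 and 2 arrays exactly gives no p below 0.333. The code was tested on simulated data.

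Gene symbols came from the platform annotation: 10833 probe sets had 1, 396 had several and were not named, and 1193 had none. The genes named are all members, the pathway genes outside the list that passed, C1qa, C1qb, C1qc, and the markers that bear on a member. The C1q chains and those markers were picked after their values were seen. The members, lists and rules were chosen with earlier results of these data known. Alternatives changed the normalization, floor, filter, variance model and block, or dropped an array. Scanner type as a block and centring on hepatocyte markers were added after seeing the data. Motifs were searched on both strands of RefSeq promoters (GRCm38.p6).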

Additional observations from a re-analysis of the deposited data

How the results depend on the processing

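The 6 members called lower kept that direction under every setting run. Their arrays did not overlap between the groups, so leaving an array out or adding a block could not change the sign. Only a change of normalization or the centring could have turned it. Their calls are the less stable quantity. The counts of members lower or higher given here for each setting are counts of calls. Quantile normalization gave 4 lower and 1 higher (Fgb), with a members' median of -0.036. Without a filter on dim probe sets 0 members were called lower and 165 probe sets were called in all (11 members at an unadjusted p of 0.05). The fluidics station as a block gave 0 lower, 0 calls in all and a median of -0.46, and eBayes without a trend gave 3 lower (Mbl1, Mbl2 and Itih1). Centring on hepatocyte markers, added after seeing the data, gave 0 called lower, 3 called higher, 1594 calls in all and a median of 0.19. This centring adds a constant to every difference. The station block gave the same differences as leaving out PEPCK-TAg 2, which was alone on its station. The cause of the other changes was not tested. Leaving out 1 array on the same probe sets assumes that the lone array varies like the other group. It gave 0 to 6 members lower, 0 to 1 higher, 0 to 1449 probe sets in all and medians from -0.46 to -0.20. The 0 counts came without PEPCK-TAg 1 or PEPCK-TAg 2. Other settings moved no count by over 1.5 times. Chip lot as a random block could not be fitted.

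With the replicate block, 9 members were called lower (also F9, F12 and 1 probe set of F7) and 2 were called higher (Vwf and 1 of F10). In all, 1873 probe sets were called. The labels give same-numbered arrays nothing in common but the number. By the array files, the replicate 1 arrays also share scan day, scanner type and station, and the replicate 2 arrays share none of these. Deviations of same-numbered arrays correlated at 0.25 over probe sets.

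Members not called changed sign as follows. Quantile normalization turned 17 of 38: F2 (0.25), F10 (0.0018), Pros1 (-0.037), F8 (-0.12), F13b (0.022), Kng1 (0.31), Fgg (0.345), Plg (0.067), Plau (-0.086), Serpinc1 (0.078), Serpind1 (0.38), Cfb (-0.25), Cfi (0.23), C4bp (0.14), Vtn (0.17), Itih2 (0.15) and Itih3 (0.36). The floor at the 40th percentile turned Cfb (-0.046). The station block turned Pros1 (-0.23), F8 (-0.091), C4bp (0.024) and Itih4 (-0.065). The scanner block, added after seeing the data, turned F2 (0.0018), Serpinf2 (0.43), Cfb (-0.12) and Itih3 (0.058). Within the shared scan day 4 of 39 turned: Pros1 (-0.033), F8 (-0.015), Cfb (-0.092) and Itih4 (-0.045). Centring on hepatocyte markers turned 18 of 39, all from lower to higher. With 1 array left out, differences ran from -0.46 to 0.10 for F2, -0.23 to 0.39 for Pros1, -0.091 to 0.36 for F8, -0.26 to 0.036 for Serpind1, -1.0 to 0.43 for Serpinf2 and -0.83 to 0.15 for Masp1. They ran from -0.12 to 0.14 for Cfb, -0.40 to 0.024 for C4bp, -0.34 to 0.058 for Itih3 and -0.065 to 0.081 for Itih4.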
